A study of Oryza sativa with 45 samples.

Results

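The comparison described here is that of rice line NSb with line C in generation F4, grown without salt. Its members were the arrays whose titles name these lines and this generation, 3 pools of NSb and 3 pools of C, which are 6 of the 45 arrays of the series, and every one of the 54922 probe sets on those arrays was tested. The series covers 15 conditions with 3 pools each, in which the lines named C, NSb and Ta were sampled at F4, at F6 with and without salt, and at F8 with and without salt-stressed ancestors. Affymetrix RUSGene 1.1 ST arrays measured messenger RNA, with 1 array for each pool of 10 whole seedlings of Oryza sativa cv. Nipponbare, aged 15 days.

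Line C was never cultured in vitro nor transformed. Line Ta carries 1 copy of rice ICE1, fused to a TAP tag, behind the constitutive maize ubiquitin promoter, and a hygromycin resistance gene. Line NSb is a negative segregant: it descends from a different transformation event, Tb, made with ICE1 behind the same promoter but without the tag, and lost the transgene by segregation. Both NSb and Ta went through in vitro culture and Agrobacterium-mediated transformation in their ancestry. Each line comes from 1 event, so the 3 pools measured the spread between pools of 1 line and not between negative segregants, and the passage through culture, the former insertion and the line itself cannot be told apart in NSb.

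Plants regenerated from tissue culture can differ from their seed-grown parents through mutation, mobile elements and changed DNA methylation, and such differences are inherited with different stability. A negative segregant carries this history without the transgene, and is used as a comparator when transgenic plants are assessed. Among the processes followed here, abscisic acid and jasmonate are hormones of stress and wounding, and receptor-like proteins at the cell surface detect microbes.

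Values are robust multi-array average (RMA) signals on the log2 scale, so a difference of 1 is a doubling of the signal. The median of all F4 signals was 4.48, and a signal under it may be background, in which case the fold understates the difference. Arrays of the same line (C or NSb) correlated at 0.986 to 0.990 over all probe sets and C arrays with NSb arrays at 0.983 to 0.986, and no array stood apart. The labels were checked on the transgene's parts. The hygromycin phosphotransferase probe set read 3.47, 3.15 and 3.48 in the C pools, 3.66, 3.26 and 3.29 in the NSb pools and 10.94, 10.71 and 10.91 in the Ta pools. ICE1 read 5.92, 5.64 and 5.87 in C, 6.30, 6.30 and 5.99 in NSb, and 9.56, 9.52 and 9.35 in Ta. NSb thus stood with C for the selectable marker, and its ICE1 difference from C of 0.39 did not pass (limma, standard error 0.12, adjusted p = 0.191). Leaf marker genes were well above the median in both lines, and endosperm markers near the bottom of the scale. The mean signal of 5 leaf markers was 8.53 to 8.65 in the C pools and 8.57 to 8.66 in the NSb pools, and that of 12 endosperm markers 2.61 to 2.72 and 2.61 to 2.69. Of the 11 root markers, which averaged 6.24 to 6.33 in C and 6.10 to 6.25 in NSb, 1 passed (limma), NAAT1, with 4 lower at an unadjusted p under 0.05. The 11 pollen and anther markers averaged 3.23 to 3.33 in C and 3.28 to 3.33 in NSb. In the leaf, endosperm and pollen and anther lists 0 members passed, with 2, 0 and 1 at an unadjusted p under 0.05. In pools of whole seedlings a smaller share of an organ and less RNA per cell cannot be told apart.

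Most of the large differences between the lines in F4 were of transcripts with a higher signal in NSb than in C. At 3-fold or more and an adjusted p under 0.05, 43 probe sets were called, which is 0.0783% of those tested. Of these, 39 were higher in NSb (0.071%) and 4 were lower (0.00728%). Some probe sets share all values with another, and the 43 stand for 39 distinct signals. In 18 of the 39 raised probe sets the mean of C lay under the F4 median, where a signal may be background. Without the fold minimum 584 probe sets passed (1.06%), 338 higher and 246 lower, against 7278 at an unadjusted p under 0.05. Most were small: 256 of the raised and 220 of the lowered differed by less than 2-fold. Over all probe sets the median difference was -0.01, and the pools of the lines did not overlap in 9.01% with NSb above and 8.46% with NSb below. These counts depend on single pools: without NSb replicate 1 the count at 3-fold was 26 (25 higher and 1 lower), and without the fold minimum it ran from 107 without NSb replicate 2 to 431 without Ta replicate 3. Alternative fits, 17 in all, varied the samples, the filter and the model, and 28 of the 43 probe sets kept an adjusted p under 0.05 in each that tested them. Of these, 23 also kept the 3-fold difference in each. The 5 that fell below 3-fold with 1 pool left out were LOC4328842, LOC_Os01g51890, LOC_Os11g17440, LOC_Os03g43100 and LOC_Os08g41489. In what follows a call lost in an alternative means that its adjusted p missed the threshold there, and a transcript removed by a filter or as a duplicate counts over 15 or 16 of them.

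**Figure D1:**
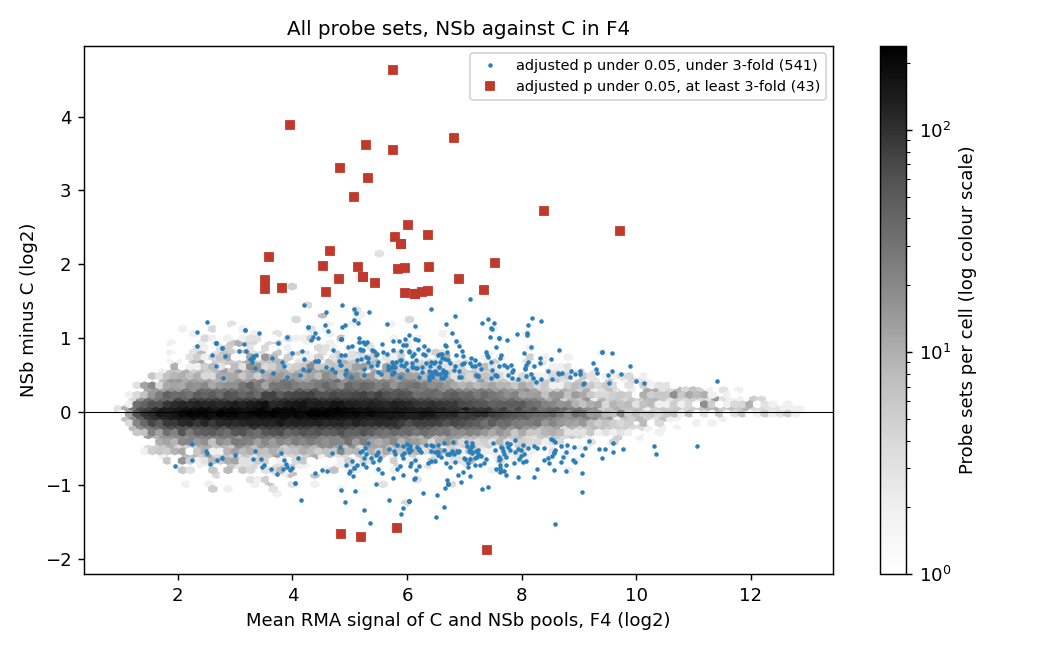
Difference of NSb from C in F4 (log2, vertical axis) against the mean signal of the 6 pools (log2, horizontal axis) for all 54922 probe sets, shown as cells whose grey gives the number of probe sets on a log colour scale. Red squares are the 43 probe sets with an adjusted p under 0.05 and at least 3-fold, 39 of them above the zero line, and blue points are the 541 that passed below 3-fold.

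The called transcripts differed in whether they passed in the later generations, read on arrays that the F4 call had not used. In F6, 12 of the 43 passed again in the same direction, where 0.0291% of all probe sets were higher in NSb at an adjusted p under 0.05, and in F8 14 passed, where 0.0382% did. All 12 were among the 14, and all 14 were raised. The F4 median difference of the 14 was 2.72, and the later medians were 2.60 (F6) and 2.72 (F8). The same 14 also passed in F6 under salt (0.0765% of all probe sets higher) and in F8 with salt-stressed ancestors (0.0728%), where the pools are further ones of the same lines. Of the other 29 probe sets, 0 passed in F6 or F8 without salt, 1 passed in F6 under salt and 0 in F8 with salt-stressed ancestors (limma). At an unadjusted p under 0.05 these counts were 5, 7, 15 and 4. The 25 raised among the 29 had a median difference of 1.94 in F4 and of 0.10 in each later generation, beside medians over all probe sets of -0.01 in each generation. The 14 and the 29 were split by whether they passed in F6 or F8, so their later medians follow in part from that split.

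**Figure D2:**
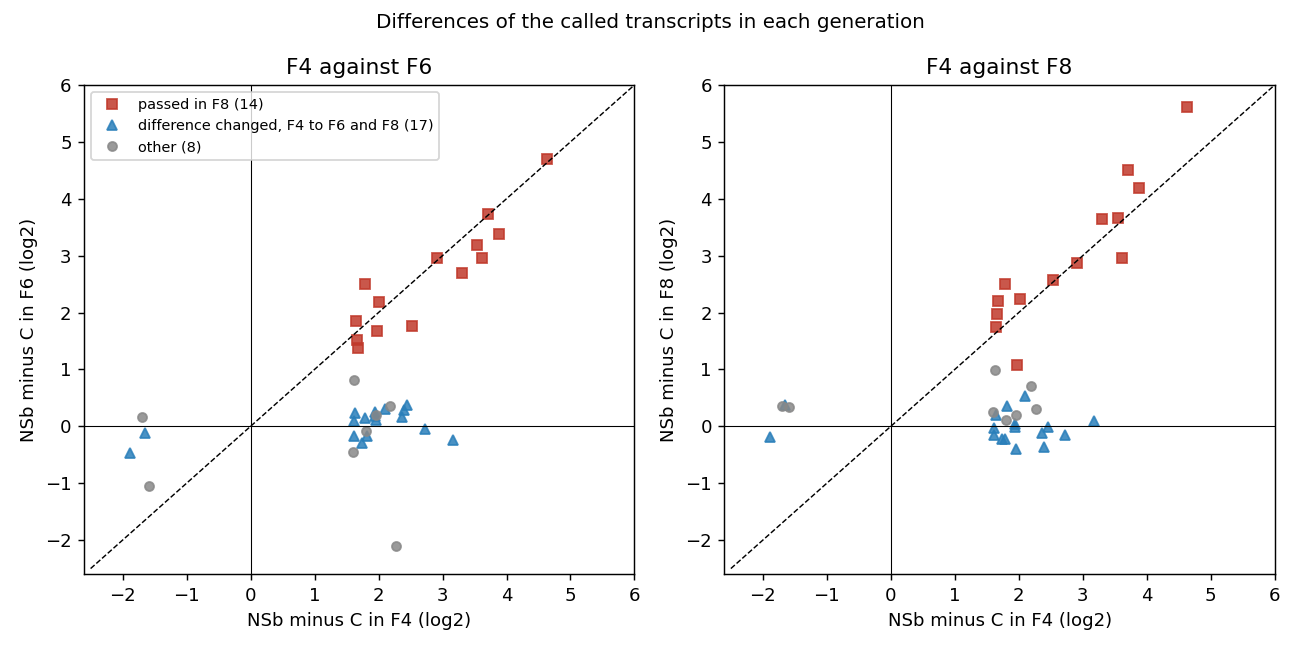
Difference of NSb from C (log2) in F6 (left) and in F8 (right) against that in F4, for the 39 distinct signals called in F4, with the dashed line marking equal differences. The 14 transcripts that passed in F8 (squares) lie along the line, and the 17 distinct signals whose difference changed between F4 and both later generations (triangles) lie near zero on the vertical axes. Both groups were sorted by tests on these same values, so their places follow in part from the sorting.

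Most of the 14 lasting transcripts have no described function, and the array annotation (MSU rice annotation, release 6) calls them expressed or hypothetical proteins. Those with coordinates lie on chromosomes 1, 2, 3, 4, 7, 11 and 12, and no pair of them lay within 50000 bases of each other. LOC_Os03g02470 (chromosome 3, 886169 to 888516, minus strand), an expressed protein, had the largest difference of the comparison. Its signal was 3.40, 3.43 and 3.50 in the C pools, 8.02, 7.95 and 8.26 in the NSb pools, and 4.84, 5.37 and 5.33 in the Ta pools. NSb stood 24.8-fold above C (difference 4.63, standard error 0.15, adjusted p = 9.33e-06), and the Ta pools lay between, apart from both. Ta also passed against C (1.74, adjusted p = 0.0042), and NSb stood above Ta by 2.90 (adjusted p = 0.000159). In F6 the C pools read 3.24, 3.57 and 2.32 and the NSb pools 7.90, 7.71 and 7.60, and in F8 the NSb pools read 8.47, 8.75 and 8.27 against C pools between 2.13 and 3.54.

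In 5 of the lasting transcripts NSb passed against both C and Ta, and Ta did not pass against C. LOC_Os03g56350, a hypothetical protein (chromosome 3, 32111328 to 32111876), read 2.09, 1.84 and 2.10 in C, 6.07, 5.61 and 6.01 in NSb and 2.49, 1.98 and 2.12 in Ta. LOC_Os03g18779, an expressed protein, read 3.48, 3.42 and 3.55 in C, 6.87, 7.43 and 6.99 in NSb and 3.76, 3.17 and 3.16 in Ta. The NSb pools of both lay far above those of the other lines, by 3.88 (standard error 0.17, adjusted p = 7.22e-05) and by 3.61 (standard error 0.19, adjusted p = 0.000156) over C. LOC_Os07g06834, also an expressed protein, read 4.26, 4.05 and 3.63 in C, 7.37, 7.70 and 7.51 in NSb and 4.10, 3.28 and 4.09 in Ta, 11.7-fold higher in NSb than in C (adjusted p = 0.000754). The log2 difference of 3.54 stood at 3.19 in F6 and at 3.66 in F8.

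The fourth of these transcripts is annotated as a nodulin, of proteins first found in legume root nodules. LOC_Os04g34490 (chromosome 4, 20710320 to 20713663) read 4.77, 4.64 and 4.83 in C, 7.05, 7.70 and 7.09 in NSb and 5.37, 5.02 and 5.13 in Ta, with the NSb pools above those of both other lines. The NSb difference of 2.53 (standard error 0.17, adjusted p = 0.000776) was 1.77 in F6, where it missed the threshold (adjusted p = 0.0666), 2.56 in F8 (adjusted p = 0.00192) and 2.20 in F6 under salt (adjusted p = 8.2e-05). The last is LOC_Os01g64949, an expressed protein, with 3.60, 3.42 and 3.63 in C, 5.49, 5.79 and 5.30 in NSb and 3.48, 3.72 and 3.67 in Ta. It was the one lasting transcript whose difference changed between generations, from 1.97 in F4 to 1.08 in F8 (test of the change, adjusted p = 0.0279), while the lines still did not overlap in F8, with C at 3.47 to 3.65 and NSb at 4.40 to 4.78. In F8 with salt-stressed ancestors its difference was 2.25.

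In a further 7 lasting transcripts Ta passed against C as well, and NSb did not pass against Ta. LOC_Os11g31630, a conserved hypothetical protein, read 5.14, 5.27 and 4.47 in C, 8.71, 8.58 and 8.70 in NSb and 8.70, 8.66 and 8.69 in Ta. The transcript Os12g0428300 read 4.12, 3.40 and 3.32 in C, 6.38, 6.51 and 6.69 in NSb and 6.56, 6.64 and 6.67 in Ta. NSb minus C was 3.71 and 2.91 for these transcripts (adjusted p = 0.000139 and 0.000754), and NSb minus Ta was -0.02 and -0.10 (adjusted p = 0.993 and 0.95). The others were LOC_Os01g35330, annotated as a circumsporozoite protein precursor (NSb minus C 2.01), LOC_Os04g58050 (1.79), LOC_Os03g43100 (1.67), LOC_Os02g26730 (1.67) and LOC_Os07g01904 (1.65), all without a known role in rice. Ta minus C for them was 2.01, 1.25, 1.91, 1.98 and 1.85, and these differences share the C arrays with those of NSb. LOC_Os03g43100 missed in F6 (adjusted p = 0.0556), and LOC_Os02g26730 lost its F4 call in 5 of 17 alternatives, among them those without C replicate 2 or 3 and NSb replicate 1 or 2, with an adjusted p of up to 0.068.

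Os06g0265100, with no described product, passed in all 3 comparisons of the lines, as LOC_Os03g02470 did. Its signal was 3.10, 3.20 and 3.24 in C, 6.34, 6.50 and 6.61 in NSb and 4.19, 4.19 and 3.92 in Ta. The 3 lines did not overlap, and NSb stood 9.86-fold above C (adjusted p = 9.33e-06) and 2.39 above Ta on the log2 scale (adjusted p = 8.58e-05). Ta stood 0.91 above C (adjusted p = 0.0202).

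**Figure D3:**
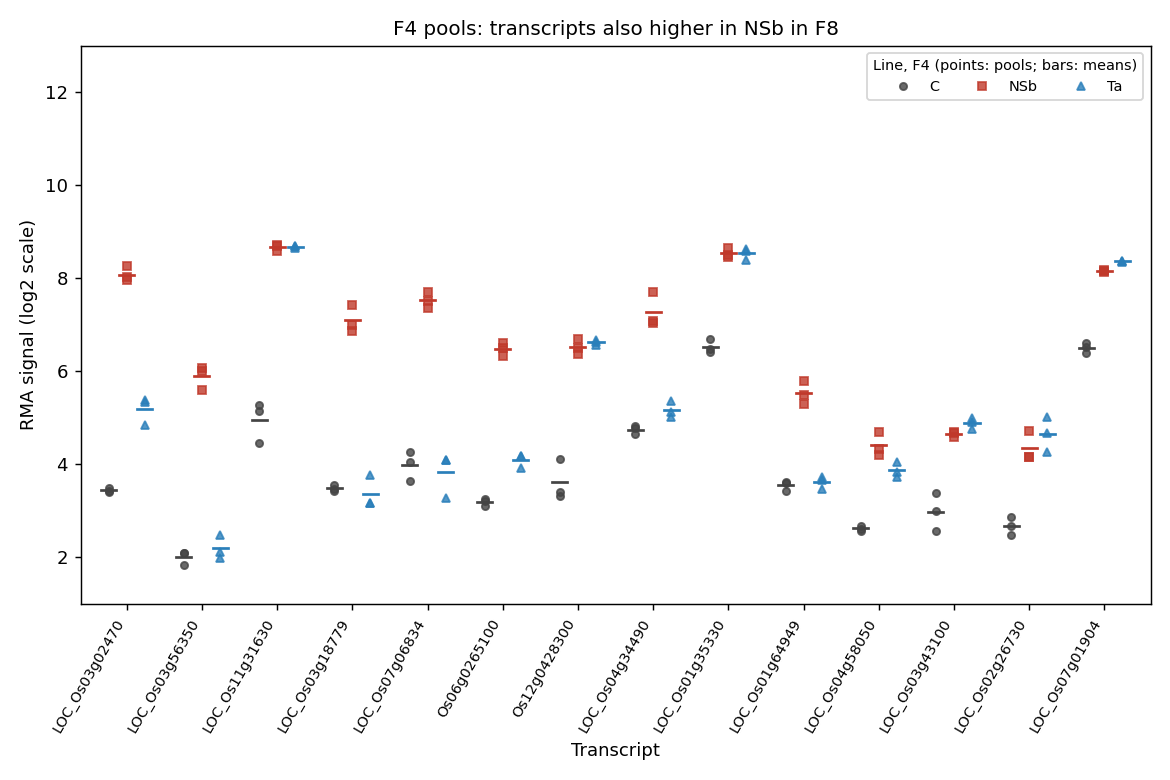
RMA signal (log2) of each F4 pool for the 14 transcripts called in F4 that also passed in F8: circles are C, squares NSb and triangles Ta, and short bars are means of 3 pools. NSb pools lie above C pools in every transcript, and Ta pools lie with C in some, such as LOC_Os03g56350, and with NSb in others, such as LOC_Os11g31630.

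The 29 probe sets that did not pass in F6 or F8 without salt hold most of the genes with a described product. The change of the NSb difference was tested directly in a fit of 27 arrays. It passed in 0.608% of all probe sets between F4 and F6 and in 0.288% between F4 and F8. The difference was more positive in F4 than in F6 in 0.477% and than in F8 in 0.198%, more negative in 0.131% and 0.0892%, and more positive than in both in 70 probe sets (0.127%). Of the 43 called probe sets, 18 changed against both generations, 16 of the raised and 2 of the lowered, and they stand for 17 distinct signals. The remaining 11, which hold 8 distinct signals, neither passed again nor changed against both. The F4 call and this test share the F4 arrays, so a large F4 difference favours a large change.

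The largest F4 difference among them was that of LOC_Os01g06876, 1 of 3 adjacent transcripts on chromosome 1. Among the 33 called probe sets with chromosome coordinates, these were the only ones within 50000 bases of each other. LOC_Os01g06870 (3250204 to 3251724) is annotated as a resistance protein SlVe1 precursor and LOC_Os01g06876 (3255822 to 3256901) as Cf-2. Ve1 and Cf-2 are receptor-like proteins known from tomato, where they give resistance to fungal pathogens. LOC_Os01g06882 (3256944 to 3257893) is an expressed protein. All lie on the plus strand, with 4097 bases between the first and the second and 42 between the second and the last, so that the last pair nearly touches.

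The Cf-2 transcript LOC_Os01g06876 read 3.83, 3.74 and 3.65 in the C pools, 7.14, 6.99 and 6.60 in the NSb pools and 5.26, 5.10 and 4.46 in the Ta pools. The SlVe1-like LOC_Os01g06870 read 8.43, 8.28 and 8.78 in C, 11.04, 10.98 and 10.82 in NSb and 9.99, 9.67 and 9.29 in Ta. LOC_Os01g06882 read 4.67, 4.26 and 4.89 in C, 7.32, 6.90 and 6.71 in NSb and 5.44, 5.58 and 5.17 in Ta. In all of them the lines were ordered C, Ta, NSb without overlap. The SlVe1-like transcript was strongly expressed in C already, while the other pair was near or under the F4 median there. NSb minus C was 3.17 for the Cf-2 transcript (standard error 0.21, adjusted p = 0.000754), 2.45 for the SlVe1-like one (0.19, adjusted p = 0.00156) and 2.37 for LOC_Os01g06882 (0.20, adjusted p = 0.0027). NSb was also above Ta for the Cf-2 transcript by 1.97 (adjusted p = 0.023) and for LOC_Os01g06882 by 1.58 (adjusted p = 0.0485), whereas the SlVe1-like one missed (1.30, adjusted p = 0.0878). In F6 the differences from C were -0.24 (standard error 0.19), 0.37 (0.42) and 0.16 (0.12), in the order Cf-2, SlVe1-like, LOC_Os01g06882. In F8 they were 0.09, -0.02 and -0.12 (standard errors 0.11, 0.24 and 0.12). In F6 under salt they were 0.95 (standard error 0.21), 1.497 (0.39) and 0.43 (0.16), and none passed (adjusted p = 0.21, 0.406 and 0.721). Without salt the Cf-2 pools lay at 1.72 to 2.58 in C and 1.79 to 1.87 in NSb of F6, and at 2.18 to 2.22 in C and 2.23 to 2.35 in NSb of F8. The SlVe1-like pools of F6 were uneven, with 5.91, 6.13 and 7.62 in C and 7.50, 6.91 and 6.34 in NSb.

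Among hormone genes, ABA8OX1 (LOC_Os02g47470) encodes an abscisic acid hydroxylase, which starts the breakdown of the hormone. Its signal was 6.76, 7.13 and 7.18 in C, 9.77, 9.71 and 9.76 in NSb and 8.86, 9.15 and 7.96 in Ta. NSb was 6.60-fold above C (difference 2.72, standard error 0.27, adjusted p = 0.00455) with no overlap, while the Ta pools lay between and did not pass against either line. In F6 the C pools stood at 7.76 to 8.23 and the NSb pools at 7.93 to 8.12, and in F8 at 7.61 to 8.05 and 7.56 to 7.71. Its difference in F6 under salt was 0.71 (standard error 0.20, adjusted p = 0.498). JAZ10 (LOC_Os03g08330), a ZIM domain protein of the family that represses jasmonate-responsive genes, read 5.99, 5.02 and 5.19 in C, 7.36, 7.16 and 7.57 in NSb and 6.86, 6.93 and 5.92 in Ta. Its difference of 1.96 (standard error 0.32, adjusted p = 0.0322) lost the call in 8 of 17 alternatives, with an adjusted p of up to 0.115. These were the fit of the 6 arrays of C and NSb (0.0588), the fit with the replicate number as a block, and the omission of C replicate 2 or 3, of Ta replicate 1 or of any 1 NSb pool.

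Regulators and protein turnover factors formed the next set. A RING-type zinc finger protein, LOC_Os02g52210, a family that includes many ubiquitin ligases, read 4.99, 5.30 and 5.20 in C, 7.59, 7.58 and 7.51 in NSb and 6.34, 6.45 and 5.55 in Ta. The F-box protein OsFBK10 (LOC_Os02g51350), of the substrate-binding subunits of ubiquitin ligases, read 6.10, 6.04 and 5.89 in C, 7.91, 7.71 and 7.78 in NSb and 6.98, 7.14 and 6.40 in Ta. The transcription factor OsWRKY71 (LOC_Os02g08440), of a family active in defence, read 5.68, 5.43 and 5.25 in C, 7.12, 7.03 and 7.07 in NSb and 6.42, 6.54 and 5.57 in Ta. C and NSb did not overlap in any of the 3, NSb pools were close to each other, and the differences were 2.39 (standard error 0.21, adjusted p = 0.00313), 1.79 (0.17, adjusted p = 0.0045) and 1.62 (0.23, adjusted p = 0.0229). The call of OsWRKY71 was lost without C replicate 2 or 3 and without any 1 NSb pool (adjusted p up to 0.0936). A NAC transcription factor, LOC_Os01g64310, read 3.87, 3.83 and 4.76 in C and 6.05, 6.05 and 6.26 in NSb. Its difference of 1.96 (standard error 0.32, adjusted p = 0.0341) changed against F6 (adjusted p = 0.0341) and missed against F8 (adjusted p = 0.051), and it lost its call in 8 of 17 alternatives, including C replicate 1 or 2, Ta replicate 2 or any 1 NSb pool left out (adjusted p up to 0.116).

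BC1L6 (LOC_Os07g41310) is a COBRA protein, of a family of wall proteins needed for cellulose deposition. Its pools read 4.91, 5.16 and 4.93 in C, 6.83, 7.12 and 6.87 in NSb and 5.90, 5.82 and 5.34 in Ta. NSb exceeded C by 3.84-fold (standard error of the log2 difference 0.16, adjusted p = 0.00208) and 1.25 above Ta on the log2 scale (adjusted p = 0.0449). A 3-ketoacyl-CoA synthase, LOC_Os02g11070, of the enzymes that lengthen fatty acids for waxes, read 5.16, 5.23 and 5.10 in C and 6.98, 6.65 and 6.70 in NSb. It differed by 1.61 (adjusted p = 0.00986), with an adjusted p of 0.0527 without NSb replicate 1. An NADP-dependent oxidoreductase, LOC_Os04g41960, was 1.94 higher (adjusted p = 0.00599), a protein of the endonuclease, exonuclease and phosphatase family, LOC_Os01g51890, 1.64 (adjusted p = 0.00389), and an expressed protein, LOC_Os02g11859, 1.74 (adjusted p = 0.0219, lost without any 1 C or NSb pool, up to 0.0905). A pair of probe sets with the same values for tRNA-Ile (CAU) was 1.82 higher (adjusted p = 0.026, lost without C replicate 3, Ta replicate 1 or any 1 NSb pool, up to 0.101).

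Os12g0113600, with no described product, was the exception among the raised transcripts that changed against both F6 and F8, because Ta stood with C. It read 2.37, 2.50 and 2.77 in C, 4.58, 4.81 and 4.53 in NSb and 2.51, 2.27 and 2.75 in Ta. NSb differed from C by 2.10 (standard error 0.15, adjusted p = 0.000996) and from Ta by 2.13 (adjusted p = 0.00147). The difference was 0.31 in F6 and 0.53 in F8, and it was the 1 transcript of the 29 that passed in F6 under salt (0.96, adjusted p = 5.21e-05).

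In 15 of the 16 raised probe sets that changed against both generations, the mean of Ta lay between those of C and NSb. The share over all probe sets was 36.8%. That is no like background, because the 16 were chosen for a wide gap between C and NSb, which favours a mean inside it. The median difference of the 16 from C was 1.94 in NSb and 0.94 in Ta, and the differences share the C arrays. In 15 of the 16 the lowest of the Ta pools was replicate 3, which widened the spread of Ta. The 16 include the pair of tRNA-Ile probe sets with the same values, and the share over all probe sets was not counted. Of all 39 raised probe sets, 10 passed for Ta against C (0.126% of all probe sets higher) and 11 passed for NSb above Ta (0.0492%). At 3-fold NSb and Ta differed in 13 probe sets of all (0.0237%).

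**Figure D4:**
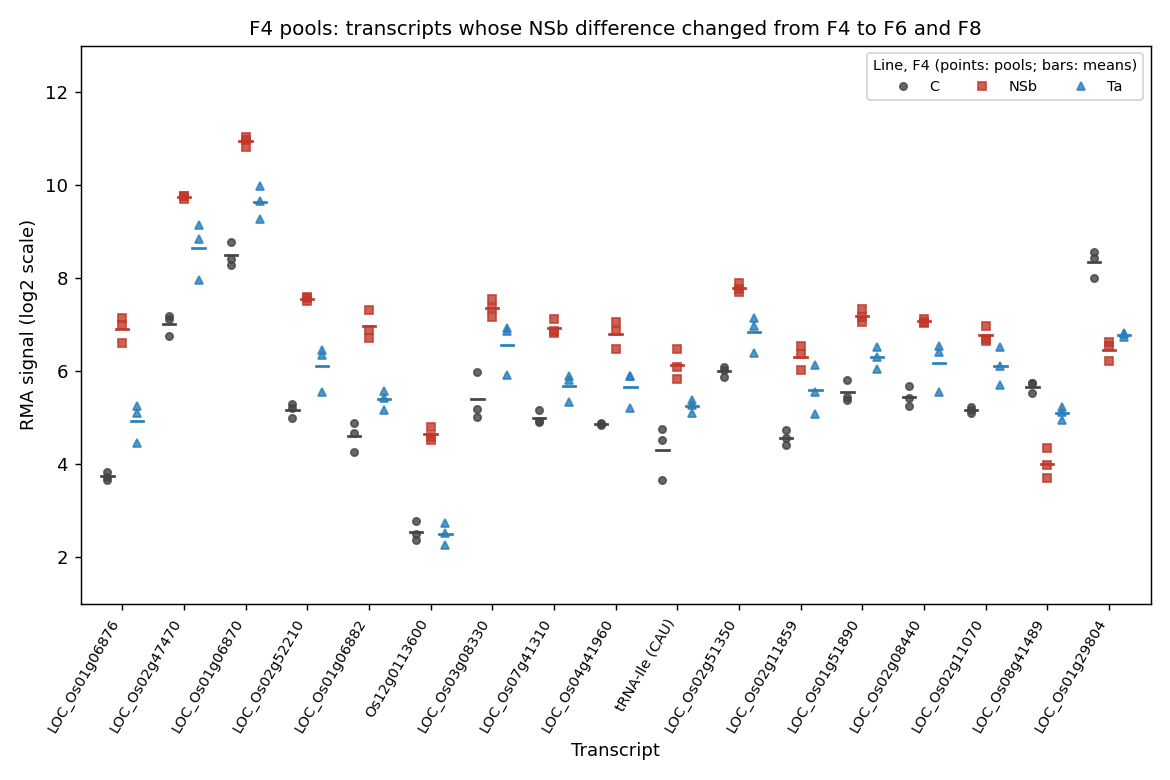
RMA signal (log2) of each F4 pool for the 17 distinct called signals whose NSb difference changed between F4 and both F6 and F8, with circles for C, squares for NSb, triangles for Ta and bars for means of 3 pools. NSb pools lie above C pools in the first 15 and below them in the last 2, and the mean of Ta lies between those of C and NSb except for Os12g0113600.

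Of the 11 probe sets that neither passed again nor changed against both generations, 9 were raised. The protein kinase LOC_Os11g10710 read 3.58, 3.61 and 3.49 in C, 5.82, 5.57 and 5.84 in NSb and 5.40, 5.81 and 5.58 in Ta. NSb and Ta overlapped, both stood clear of C, and NSb minus C was 2.18 (standard error 0.12, adjusted p = 0.000208). The difference changed against F6 (adjusted p = 0.0183) and missed the threshold against F8 (adjusted p = 0.0859), with 0.35 and 0.71 left. The F6 pools were uneven, with 3.85, 3.87 and 4.93 in C and 4.96, 4.17 and 4.58 in NSb. The enoyl-CoA hydratase LOC_Os11g17440, of an enzyme family in fatty acid breakdown, was 1.62 higher (adjusted p = 0.00389), with 0.81 in F6 and 1.00 in F8, neither of which passed. The cytochrome P450 LOC_Os12g05440 was 1.80 higher (adjusted p = 0.0383) and lost its call in 9 of 17 alternatives, such as those without any 1 C or NSb pool, with an adjusted p of up to 0.12. The remaining 5 probe sets have no name in the annotation used and hold 2 distinct signals, 2.28 and 1.60 higher (adjusted p = 0.0147 and 0.0285), lost in 3 and in 6 alternatives with NSb replicate 1 or 2 left out among them (up to 0.0682 and 0.101). The first of these signals was lower in NSb in F6, at -2.11 (limma, standard error 0.70, adjusted p = 0.628). Its difference changed by 4.38 against F6 (adjusted p = 0.00564) and missed against F8 (adjusted p = 0.401).

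The 4 lowered transcripts have no described product. LOC_Os01g29804, an expressed protein (chromosome 1, 16692935 to 16699719), read 8.01, 8.57 and 8.44 in C, 6.54, 6.21 and 6.63 in NSb and 6.81, 6.83 and 6.73 in Ta, so that the pools of both lines lay below those of C and the NSb pools below the Ta pools. NSb minus C was -1.88 (standard error 0.16, adjusted p = 0.00256). LOC_Os08g41489, an expressed protein, read 5.53, 5.74 and 5.74 in C, 3.71, 3.98 and 4.36 in NSb and 4.96, 5.12 and 5.23 in Ta, with a difference of -1.65 (standard error 0.16, adjusted p = 0.00419). LOC4328842 read 6.75, 6.53 and 6.59 in C, 4.90, 5.01 and 5.20 in NSb and 5.89, 5.67 and 5.88 in Ta, a difference of -1.59 (standard error 0.11, adjusted p = 0.000776). The last, probe set 15925032, read 5.81, 5.73 and 6.59 in C and 4.43, 4.08 and 4.51 in NSb (-1.70, adjusted p = 0.0169, lost without NSb replicate 1 or 2 and in the fit of 6 arrays, up to 0.0764). The pools of C and NSb were apart in all 4. None passed in F6 or F8, where 0.00182% and 0.00364% of all probe sets were lower, and LOC_Os01g29804 and LOC_Os08g41489 changed against both.

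Below the fold minimum the genes with a known product were described by list. Without the ZIP transporters, a list added after its values were seen, the lists held 647 probe sets, of which 22 rose (3.40%) and 11 fell (1.70%), beside 0.615% and 0.448% of all probe sets, with a median difference of 0.03. With that list they held 660, of which 14 fell. All probe sets are an unlike background, because a list member needs a gene symbol. Of the 584 calls, 401 fell among the 24080 probe sets with 1 symbol. In 16 of 33 lists with members no gene passed. Calls at this size were fragile: of 36 list members called, 10 passed in the fit of the 6 C and NSb arrays, and the count was 6 without NSb replicate 1 and 7 without NSb replicate 2. ABA8OX1, BC1L6 and MT4B passed in each of the 17. In F6 0 of the 660 passed (limma, 45 at an unadjusted p under 0.05), and in F8 1 did (40 unadjusted), the phosphate transporter PHT1;11, which did not pass in F4 (0.61, adjusted p = 0.172).

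Of the jasmonate genes, 5 of 18 JAZ repressors rose and 0 fell, with a list median of 0.34. JAZ6 read 7.69, 7.44 and 7.52 in C and 8.91, 8.81 and 8.74 in NSb, a difference of 1.27 (standard error 0.13, adjusted p = 0.00609). JAZ12 read 6.27, 6.02 and 5.98 in C and 7.36, 7.08 and 7.38 in NSb, a difference of 1.19 (standard error 0.19, adjusted p = 0.0298). The lines were clear of each other in both. JAZ11 was 0.60 higher (adjusted p = 0.0292), and JAZ4, outside the naming rule and picked after its value was seen, 0.46 higher (adjusted p = 0.0447). JAZ6 lost its call in 1 alternative (0.0639), JAZ12 and JAZ11 in 9 and JAZ4 in 12, with adjusted p of up to 0.115, 0.114 and 0.151, the omission of any 1 NSb pool being among them for the last 3. In F6 and F8 the list medians were -0.01 and -0.04. Of 19 genes of jasmonate synthesis, 0 passed (6 higher and 0 lower at an unadjusted p under 0.05), and the median was 0.17.

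Of 6 genes of abscisic acid synthesis and breakdown, 2 rose, the hydroxylase ABA8OX1 and NCED3, an enzyme of synthesis, which differed by 0.81 (adjusted p = 0.0236) at a signal of 2.70 to 2.90 in C and 3.49 to 3.79 in NSb, under the F4 median. NCED3 lost its call in 8 alternatives, up to 0.286, among them each omission of a C or NSb pool. Of 12 genes of abscisic acid signalling 0 passed (3 unadjusted, median 0.03), as did 0 of 7 LEA proteins and dehydrins (2 unadjusted, median -0.06), which protect drying cells. Of 92 calcium sensor and kinase probe sets, 3 rose and 1 fell. CPK4, a calcium-dependent kinase, read 7.56, 7.74 and 7.87 in C and 8.93, 8.84 and 9.10 in NSb (1.23, adjusted p = 0.0117, lost without NSb replicate 1 and under the SD filter, up to 0.0838). CIPK29 and CBL4, a kinase and a sensor that act in such pairs, were 0.78 and 0.84 higher (adjusted p = 0.0154 and 0.0426), and the kinase CIPK10 was 0.93 lower (difference -0.93, adjusted p = 0.0226), with up to 0.0764, 0.277 and 0.221 in alternatives.

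Few other defence genes in the lists passed. The lists of NLR resistance proteins, Cf and Ve receptor-like proteins, and thionins and defensins held 0 members, so these families were not counted. Of 16 chitinase, glucanase and pathogenesis-related genes 0 passed (4 unadjusted, median -0.06), and of 19 phytoalexin genes 1 rose, CPS4, a diterpene cyclase of momilactone synthesis (1.18, adjusted p = 0.0254, up to 0.103). OsWRKY71 was the only 1 of 6 WRKY genes to pass, and of 10 MYB genes 1 rose, MYB4 (1.04, adjusted p = 0.009, lost in 2 alternatives, 1 of them without NSb replicate 1), and 1 fell, MYBS1 (-0.70, adjusted p = 0.0274, lost in 9). None passed among 10 NAC genes with such a symbol, 14 AP2/ERF and DREB factors, 47 heat shock proteins and factors, 2 class III peroxidases or 6 glutathione S-transferases, whose medians were -0.02, 0.00, 0.01, 0.60 and 0.09 and whose counts at an unadjusted p under 0.05 were 2, 3, 9, 2 and 2. Of 18 antioxidant enzymes 1 fell, catalase CAT-A (-0.50, adjusted p = 0.0485, lost in 10 alternatives). Outside the lists, and picked after their values were seen, the ABC transporter ABCG44 was 1.12 higher (adjusted p = 0.000754) and the MAP kinase MPK7 1.05 higher (adjusted p = 0.00769), each losing the call under the SD filter alone (0.109 and 0.142).

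Of 38 cellulose synthase, cellulose synthase-like and COBRA genes 5 rose and 0 fell (median 0.10). Besides BC1L6 these were CSLC9 (0.60, adjusted p = 0.0336) and the cellulose synthases CESA1 (0.38, adjusted p = 0.0363), CESA5 (0.45, adjusted p = 0.0368) and, outside the naming rule, CESA6 (0.44, adjusted p = 0.0434). CESA1 read 8.86, 8.94 and 8.87 in C and 9.23, 9.28 and 9.32 in NSb, a small shift at a high signal without overlap. These 3 synthases missed the threshold in the fit of 6 arrays (adjusted p = 0.11, 0.0842 and 0.125), while CSLC9 passed there (0.0379) and missed in 8 other alternatives (up to 0.124), each omission of a C or NSb pool among them. Of 40 expansins, which loosen walls, 0 passed (2 unadjusted, median 0.04), nor did the 1 xyloglucan endotransglucosylase (0.05, adjusted p = 0.891).

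Metal and water transport genes were among those that fell. Of 9 metallothioneins, small proteins that bind metal ions, 2 fell and 0 rose (median -0.23). MT4B read 6.04, 6.15 and 6.15 in C and 4.51, 4.39 and 4.89 in NSb, a difference of -1.51 (standard error 0.13, adjusted p = 0.00313). MT4C read 9.70, 9.59 and 9.49 in C and 8.42, 8.52 and 8.55 in NSb, a difference of -1.10 (standard error 0.09, adjusted p = 0.00275). The lines were apart in both, and both differences changed against F6 and F8 (adjusted p = 3.01e-05 and 4.22e-05 for MT4B, 0.000456 and 0.0192 for MT4C). The means of MT4B were 2.38 in C and 2.66 in NSb of F6, and 2.48 and 2.71 in F8. Such signals may be background, where a fall in NSb could not be seen. MT4C missed under the SD filter (0.122). Of 13 probe sets of ZIP zinc and iron transporters, a list added after its values were seen, 3 fell: ZIP1 (-1.11, adjusted p = 0.0262), ZIP4 (-0.62, adjusted p = 0.0443) and 1 of the 3 probe sets of ZIP9 (-0.70, adjusted p = 0.0475). The other ZIP9 probe sets differed by -0.26 and -0.01 and did not pass, and the ZIP calls were lost in 7, 11 and 13 alternatives, each without any 1 C pool and without NSb replicate 1 or 2, with up to 0.132, 0.143 and 0.366. NAAT1, nicotianamine aminotransferase of the iron-chelator pathway, read 7.32, 7.51 and 7.49 in C and 6.41, 6.82 and 6.82 in NSb (-0.76, adjusted p = 0.0285), and was lost in 10 (up to 0.315). Metal transporters act in roots. The mean of the 11 root markers was 6.24 to 6.33 in C pools and 6.10 to 6.25 in NSb pools, a narrow overlap. In both lines 8 of the 11 lay above the median. At an unadjusted p under 0.05 (limma), 4 root markers were lower in NSb and 0 higher. NAAT1 was the 1 root marker that passed, and the median difference of the list was 0.08. The part of root tissue in these falls was not tested.

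Of 27 aquaporins, 3 fell and 0 rose (median -0.12). TIP1;1 of the vacuolar membrane read 9.29, 9.15 and 9.24 in C and 8.48, 8.58 and 8.66 in NSb (-0.65, adjusted p = 0.0147). TIP2;2 and PIP1;1, the latter of the plasma membrane, were -0.50 and -0.45 (adjusted p = 0.016 and 0.0395). All 3 missed in the fit of 6 arrays (adjusted p = 0.055, 0.06 and 0.119), where their pools were still apart. Of 26 nitrate, ammonium and phosphate transporters 0 passed (2 unadjusted, median 0.02). Clock genes fell in 2 of 6 cases, GI (-0.51, adjusted p = 0.0131) and PRR95 (-0.59, adjusted p = 0.0405), and of 10 light harvesting and photosystem genes 0 passed (2 unadjusted, median 0.05). GI read 9.70, 9.75 and 9.70 in C and 9.20, 9.21 and 9.20 in NSb, with little spread, and missed in the fit of 6 arrays (0.055), as PRR95 did (0.122).

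The remaining lists held single calls or none. Of 57 auxin response genes IAA26 rose (0.67, adjusted p = 0.031) and SAUR39 fell (-0.45, adjusted p = 0.0285), of 6 alpha-amylases AMY3B rose (0.83, adjusted p = 0.0366), of 42 cyclins and cyclin-dependent kinases CYCD5;3 rose (0.55, adjusted p = 0.0429), and of 23 cytosolic ribosomal proteins RPL27 rose (0.51, adjusted p = 0.0303). All 5 missed in the fit of 6 arrays (adjusted p from 0.0551 to 0.112). Of 38 cytochrome P450 genes with such a symbol ABA8OX1 alone passed, and LOC_Os12g05440, named by its locus, is outside that list. Of 22 genes of RNA silencing and DNA methylation, which set and keep chromatin marks, 0 passed (4 unadjusted, median -0.02), as did 0 of 9 histones (2 unadjusted, median 0.07) and 0 of 7 RING and U-box ligases with such a symbol (1 unadjusted, median 0.00).

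**Figure D5:**
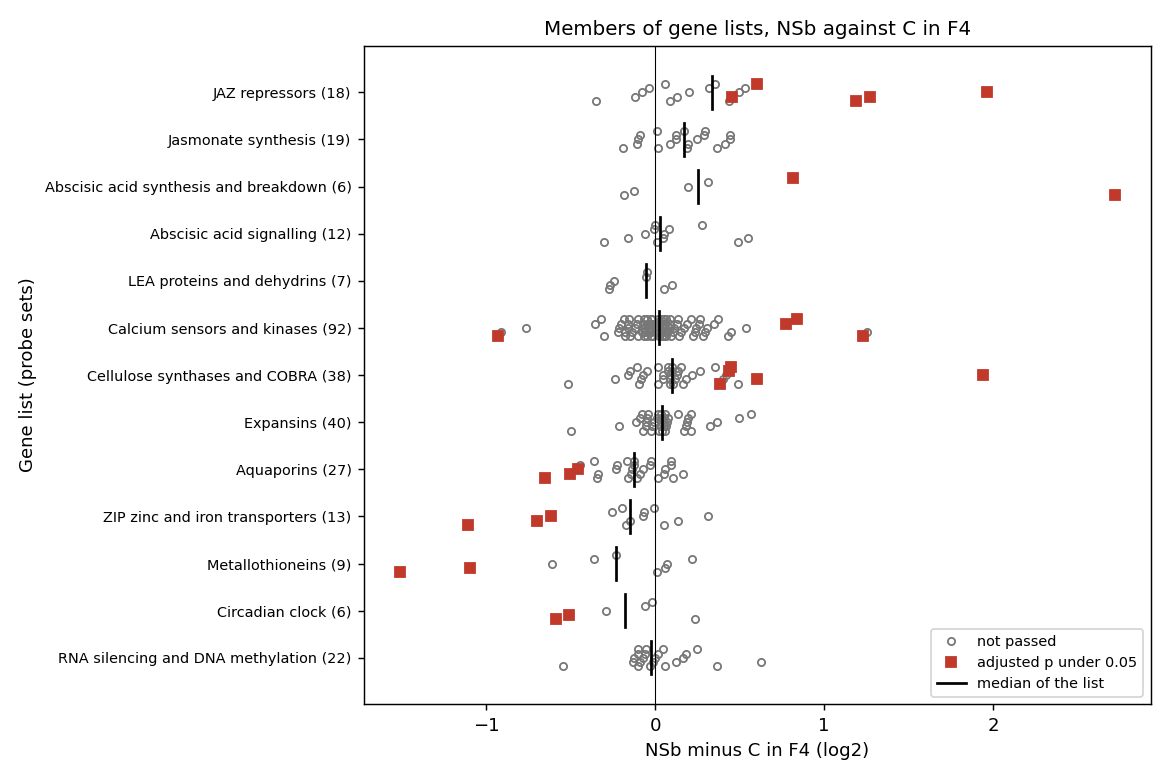
Difference of NSb from C in F4 (log2) for each member of 13 gene lists, with the number of probe sets in parentheses, filled squares for an adjusted p under 0.05, open circles for members that did not pass, and a bar at the median of each list. JAZ repressors and the cellulose list hold calls only on the right of zero, and metallothioneins, ZIP transporters, aquaporins and clock genes only on the left.

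The largest falls among named genes also held an FAD-dependent oxidoreductase, LOC_Os07g34570, which read 9.29, 9.47 and 9.27 in C and 7.78, 8.05 and 7.62 in NSb. Its difference of -1.53 (standard error 0.13, adjusted p = 0.0027) passed in each of the 17 alternatives and lay just under the fold minimum. The hevein family protein HEV2, LOC_Os04g41640, of chitin-binding proteins, read 7.77, 7.75 and 7.95 in C and 6.66, 6.83 and 6.83 in NSb (-1.05, adjusted p = 0.00313, missed under the SD filter). The zinc finger gene OsC3H54 was at -1.04 (adjusted p = 0.021) and a thioredoxin, LOC_Os02g53400, at -0.79 (adjusted p = 0.016), lost in 8 and in 5 alternatives, NSb replicate 1 or 2 left out among them (up to 0.158 and 0.0764). C and NSb did not overlap in any of these, with NSb the lower line.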

How the data were processed

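Each pool's RNA was hybridised to 1 Affymetrix RUSGene 1.1 ST array, and the authors deposited log2 signals made with the robust multi-array average (RMA) algorithm in Affymetrix Expression Console, whose version is not given in the sources used here. RMA corrects background and quantile-normalises arrays before deposit, so an even shift of all transcripts would not be seen. Array medians differed between generations, so the lines were compared in level within a generation only. The F4 median served also as a rough mark of low signal in F6 and F8.

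Lines were compared with limma 3.58.1 (R 4.3.3) on the deposited values, with Benjamini-Hochberg adjustment over 54922 probe sets. The F4 comparison used the 9 F4 arrays (C, NSb and Ta), which share 1 estimate of the spread, and the change between generations used 27 arrays of the 3 lines in F4, F6 and F8. Calls had an adjusted p under 0.05 with at least 3-fold, and separately without a fold minimum. The code was tested on simulated data. Python 3.11.15, numpy 2.4.6, pandas 2.3.3 and matplotlib 3.10.9 made the tables and plots.

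The study kept probe sets of high SD before its tests, with a share not stated. No such filter was applied in the main analysis, and a 10% share was tried, as were a filter on low signals, array centring, an intensity trend, fits of 6 or 45 arrays, a replicate block, identical probe sets counted once, other fold minimums and each array left out.

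GEO's platform annotation gave 24080 probe sets 1 gene symbol, 95 several and 30747 none. Locus names, products and coordinates (MSU rice annotation, release 6) came from the study's supplementary annotation for 348 probe sets, and none of its values were used. In all, 4714 probe sets equal an earlier one in every value. Columns not used numbered 0.

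Named genes were every transcript called at 3-fold, up to 4 members of each list with the smallest p, the 8 with the largest rise and the 8 with the largest fall among those with a gene name or described product, and the 5 with the smallest p in each test of change between generations. Clone and locus numbers did not count as gene names. Others are marked as picked after their values were seen. Lists were matched by symbol or synonym alone, so homonyms may remain and genes with a locus name only are missed. Members that matched by chance were removed after their values were seen, which emptied the lists of NLR resistance proteins and F-box proteins. Lists of thionins and defensins, Cf and Ve receptor-like proteins and early light-induced proteins had 0 matches. The members and lists were chosen with earlier results of these data known.

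Nothing in the labels ties pools to separate growth runs, so p-values measure the spread between pools, which may be partly technical. With 3 arrays a line their number limits the precision.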

Additional observations from a re-analysis of the deposited data

Results flagged for a closer look

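The NSb difference from C changed between F4 and F6 in 334 probe sets (0.608% of all) and between F4 and F8 in 158 (0.288%), by the test of the change itself in 27 arrays. The F4 arrays enter both counts.

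Among the smallest p-values for F4 minus F6 were the Cf-2 transcript LOC_Os01g06876 with 3.41 (adjusted p = 7.01e-07), Os12g0113600 with 1.79 (adjusted p = 1.81e-05), LOC_Os01g06882 with 2.21 (adjusted p = 3.01e-05), ABA8OX1 (LOC_Os02g47470) with 2.77 (adjusted p = 3.01e-05) and the metallothionein MT4B with -1.79 (adjusted p = 3.01e-05), the only one of these that was lower in NSb of F4. For F4 minus F8 they were LOC_Os01g06876 with 3.08 (adjusted p = 4.91e-06), LOC_Os01g06882 with 2.48 (adjusted p = 6.3e-06), ABA8OX1 with 2.88 (adjusted p = 2.39e-05), the F-box gene OsFBK10 (LOC_Os02g51350) with 2.02 (adjusted p = 4.22e-05) and MT4B with -1.74 (adjusted p = 4.22e-05). In F6 and F8 both lines had means under 4.48, the F4 median, for MT4B, LOC_Os01g06876, LOC_Os01g06882 and Os12g0113600. Their signals there may be background.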

How the results depend on the processing

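The 43 calls at 3-fold became 108 at 2-fold and 390 at 1.5-fold, and ran from 26 (without NSb replicate 1) to 43 (without Ta replicate 3) with 1 array left out. The 584 calls without a fold minimum became 1169 with a filter on low signals, 59 with the SD filter, 929 with an intensity trend, 140 in the 6 arrays of C and NSb and 1701 in all 45 arrays, and ran from 107 (without NSb replicate 2) to 431 (without Ta replicate 3). The 334 changes from F4 to F6 became 102 with the SD filter and 548 in 45 arrays, and ran from 151 (without F4 NSb replicate 2) to 400 (without F6 C replicate 2). The 158 changes to F8 became 56 and 313, and ran from 72 (without F8 C replicate 3) to 150 (without F4 C replicate 1). The 36 list calls became 5 with the SD filter, which tested 36 members, 10 in 6 arrays and 72 in 45, and ran from 6 (without NSb replicate 1) to 29 (without Ta replicate 3). Fits with an array left out hold fewer samples. The cause of the other shifts was not tested.

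The F4 calls passing again numbered 12 to 13 in F6 and in F8 with an array left out, beside 12 and 14, and NSb differed from Ta at 3-fold in 11 to 18, beside 13. None of the 43 probe sets called at 3-fold turned its sign in the alternatives run, nor did any smaller call that was followed singly. The remaining calls without a fold minimum were not checked for their sign. A ZIP9 probe set (-0.01, not called) turned to 0.044 without C replicate 1, 0.015 without C replicate 2 and 0.057 without NSb replicate 1, and lay at -0.084 without C replicate 3. XTH8 (0.05, not called) turned to -0.034 without C replicate 2 and reached 0.13 without C replicate 1.

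Same-numbered F4 pools of different lines correlated at -0.07 to 0.11 in their deviations from the line means. The labels state no pairing by replicate number, and with 3 pools a line these correlations cannot exclude one. With the replicate number as a block, 39 calls at 3-fold remained in number, 36 of them among the 43, beside 194 without a fold minimum, 191 and 87 changes to F6 and F8, 12 and 12 calls passing again, 13 of NSb against Ta, and 11 list calls. Signals under the array median limit the folds of weak transcripts.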
